A study of Mus musculus with 6 samples.

Results

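The contractile genes of smooth muscle were examined in whole lungs of TNF+ and TNF- mice. The set holds 10 genes, Acta2, Myh11, Tagln, Cnn1, Des, Actg2, Lmod1, Smtn, Myocd and Synpo2, chosen by symbol from the 49568 gene symbols of the count table, and all 10 passed the filter on low counts. TNF+ (TNF-Tg) mice carry a human TNF transgene and develop inflammatory arthritis and pulmonary hypertension, and TNF- mice are wildtype (WT) littermates. Both groups were female, on a C57BL/6 background and 4 months of age, with 3 mice each. One poly(A) RNA library was made per lung. The labels name the cell type as primary cells, whereas the RNA was extracted from the harvested lung, so every value below is a mixture of all lung cells. The promoter that drives the transgene is not given in the sources used here.

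Smooth muscle lies in the walls of the airways and of the larger pulmonary vessels, where it sets their width. Its cells shorten when smooth muscle myosin pulls on actin filaments, after phosphorylation of the myosin light chain, while calponin, transgelin, leiomodin and smoothelin bind the actin filaments and desmin ties them into the cell's scaffold. Serum response factor and its partner myocardin drive the transcription of these genes through a DNA element called the CArG box, and vascular smooth muscle cells can lower their contractile genes when they leave the contractile state.

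TNF+ lungs had lower RNA of most smooth muscle contractile genes. Of the 10 genes, 7 fell (Cnn1, Actg2, Myocd, Myh11, Lmod1, Acta2 and Des), 3 were not past the cutoff (Smtn, Tagln and Synpo2) and 0 rose by edgeR's quasi-likelihood test at an adjusted p under 0.05. No member rose at an unadjusted p under 0.05, or with DESeq2 or limma-voom, either. Across all symbols, 19199 genes were tested, of which 47.4% were called, 23.4% lower and 24.0% higher in TNF+ lungs, so that a large share of the transcriptome differed between these groups. The median log2 fold change of the 10 genes, TNF+ against TNF-, was -1.08, beside 0.03 for all genes tested. In 8 of the 10 genes every TNF+ lung was below every TNF- lung, and 28.2% of all genes tested were apart in that direction (58.7% in either). In bulk RNA, fewer smooth muscle cells and less RNA per smooth muscle cell cannot be told apart.

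**Figure D1:**
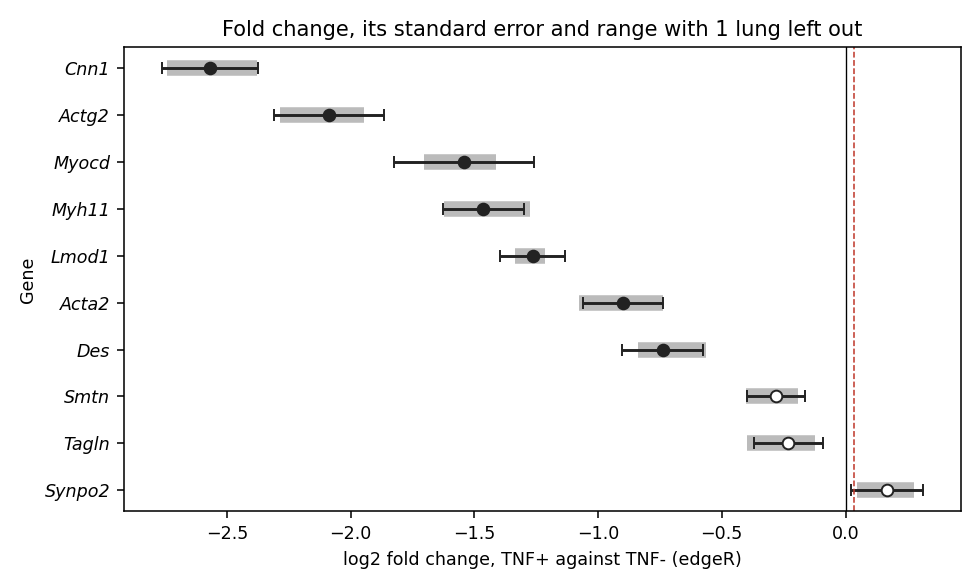
Log2 fold change of each of the 10 smooth muscle contractile genes, TNF+ against TNF- lungs (n = 3 mice each, edgeR). Thin bars are the standard error, grey bars the range with 1 lung left out, filled points genes past the adjusted p cutoff, and the dashed line the median of all genes tested (0.03). Cnn1 lay lowest at -2.57, and Synpo2 alone lay above 0.

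The 6 lungs held between 25396923 and 32529408 counts each, so that the floor of 3 counts was 0.0922 to 0.118 CPM (the count scaled to a common library total). WT replicate 1 stood apart from the other lungs. The summed level of 8 squamous epithelium markers was 3605 CPM there and 11.1 to 31.0 CPM in the other 5 lungs, and that of 8 skeletal muscle markers was 2001 CPM there and 16.5 to 51.1 CPM elsewhere. TNF-Tg replicate 1 had 5.22% of its counts on Gm42418, a locus that overlaps ribosomal RNA sequence, beside at most 0.274% in the other lungs. Where leaving out either of these lungs ended or added the call of a gene named here, the value without it is given.

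The sequence just before the start of transcription is shown for the 4 genes that fell and have an entry in the RefSeq promoter table, because the CArG box is the element through which myocardin and serum response factor act. Each line holds the 250 bases upstream of the RefSeq start (GRCm38.p6), 5′ to 3′ on the gene's strand, and capitals mark matches to a CArG box with at most 1 G or C within its run of 6 A or T bases. RefSeq and GENCODE M21 do not place these starts at the same base.
Acta2 (chr19:34255374-34255623, minus strand): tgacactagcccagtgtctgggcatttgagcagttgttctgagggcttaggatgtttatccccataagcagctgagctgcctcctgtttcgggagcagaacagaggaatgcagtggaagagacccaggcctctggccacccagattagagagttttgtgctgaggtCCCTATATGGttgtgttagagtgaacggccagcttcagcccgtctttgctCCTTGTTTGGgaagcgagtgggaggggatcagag
Cnn1 (chr9:22099003-22099252, plus strand): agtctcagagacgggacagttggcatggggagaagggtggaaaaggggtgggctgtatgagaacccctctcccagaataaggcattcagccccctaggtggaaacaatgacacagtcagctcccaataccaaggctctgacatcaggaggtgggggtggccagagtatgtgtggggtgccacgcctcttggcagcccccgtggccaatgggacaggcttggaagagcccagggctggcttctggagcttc
Des (chr1:75360042-75360291, plus strand): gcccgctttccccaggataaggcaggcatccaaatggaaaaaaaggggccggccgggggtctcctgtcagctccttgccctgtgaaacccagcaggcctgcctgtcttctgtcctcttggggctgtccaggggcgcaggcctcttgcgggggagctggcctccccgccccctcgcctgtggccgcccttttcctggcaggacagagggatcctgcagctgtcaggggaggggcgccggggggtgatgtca
Lmod1 (chr1:135324563-135324812, plus strand): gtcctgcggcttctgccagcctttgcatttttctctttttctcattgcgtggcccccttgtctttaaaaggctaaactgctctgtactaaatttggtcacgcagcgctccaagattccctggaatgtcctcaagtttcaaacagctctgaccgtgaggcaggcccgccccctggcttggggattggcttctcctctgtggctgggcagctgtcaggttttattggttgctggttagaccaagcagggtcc

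Acta2 held 2 such matches, at bases 84 to 75 and 34 to 25 before the start, and 0.67% of the 32851 promoters in the table held 2 or more. At least 1 was found in 8.593% of all promoters. Cnn1, Des, Lmod1, Smtn and Synpo2 held none in this window, and none of the 6 members with an entry held a CArG box without a G or C in the run, which 1.467% of promoters did. The pattern reads the same on both strands, and a match is a description of letters, not a binding site.

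Acta2 encodes smooth muscle alpha-actin, the main actin of the contractile filament, and lies on chromosome 19 (34241090 to 34255590, minus strand, GRCm38). Normalised counts were 5239.9, 4961 and 4902 in TNF+ mice, against 7303, 9441 and 11408 in TNF- mice. The TNF+ lungs lay close together, while the TNF- lungs were all higher and spread widely. The means were 5034 ± 180.5 and 9384 ± 2053 (SD, n = 3), and Acta2 fell by 0.90 on the log2 scale in TNF+ lungs (SE 0.16, 95% CI -1.27 to -0.53, adjusted p = 0.00244 by edgeR). Without WT replicate 1 the log2 fold change was -1.08 (adjusted p = 0.000705 by edgeR).

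Actg2 (chromosome 6, 83512905 to 83536265, minus strand) encodes smooth muscle gamma-actin, which is most abundant in visceral smooth muscle. It was at 318, 264 and 201 normalised counts in TNF+ mice, against 830.4, 1163 and 1325 in TNF- mice. All TNF+ lungs were below all TNF- lungs, and the mean in TNF+ lungs was 23.6% of that in TNF- lungs. The log2 fold change was -2.09 (SE 0.22, adjusted p = 0.000182 by edgeR). No 100-base window of the Acta2 transcripts occurred in the transcripts of Actg2 or of any other gene of GENCODE M21. Inexact matches and the rest of the genome were not searched.

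Myh11 encodes the smooth muscle myosin heavy chain, the motor of contraction (chromosome 16, 14194535 to 14291372, minus strand). The TNF+ lungs held 2720.2, 2729 and 2974 normalised counts and the TNF- lungs 6257, 7300.1 and 9678. The groups were far apart, with a log2 fold change of -1.46 (SE 0.16, adjusted p = 0.000226 by edgeR), which corresponds to a level 2.76-fold lower in TNF+ lungs. TNF+ lungs held 36.3% of the TNF- mean.

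Cnn1 encodes calponin 1, an actin-binding protein that restrains the myosin motor, and lies on chromosome 9 (22099216 to 22109630, plus strand). It had the largest fall of the 10 genes in this fit. Its normalised counts were 316, 293 and 239 in TNF+ mice, against 1314, 1609 and 2104 in TNF- mice. The log2 fold change was -2.57 (SE 0.19, adjusted p = 3.44e-05 by edgeR), a 5.94-fold lower level, and the lowest TNF- lung was well above the highest TNF+ lung.

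Lmod1 encodes leiomodin 1, which nucleates actin filaments in smooth muscle (chromosome 1, 135324807 to 135368065, plus strand). The TNF+ lungs had 244, 296 and 296 normalised counts, and the TNF- lungs 692, 715 and 605. Within each group the lungs were close, the SD being 30.1 around 279 in TNF+ and 57.9 around 671 in TNF-. Lmod1 fell by 1.26 on the log2 scale (SE 0.13, adjusted p = 0.000172 by edgeR).

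Des encodes desmin, an intermediate filament of smooth, cardiac and skeletal muscle (chromosome 1, 75360329 to 75368579, plus strand). Normalised counts were 5937, 5647 and 5138 in TNF+ mice, against 11724, 8161 and 8018 in TNF- mice. The highest value was in WT replicate 1, the lung with the skeletal muscle markers, and the other TNF- lungs were also above all TNF+ lungs. The log2 fold change was -0.74 with all lungs (SE 0.16, adjusted p = 0.00679 by edgeR) and -0.56 without WT replicate 1 (adjusted p = 0.00818 by edgeR).

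Myocd encodes myocardin, the partner of serum response factor in smooth and cardiac muscle (chromosome 11, 65176561 to 65269989, minus strand). It was the least abundant of the 10 genes, with 13, 27 and 25 raw counts in TNF+ mice, against 85, 67 and 64 in TNF- mice. After normalisation these were 17.1, 27.9 and 23.6 against 81.2, 64.2 and 56.9. No TNF+ lung reached the lowest TNF- lung, and Myocd fell by 1.54 on the log2 scale (SE 0.28, adjusted p = 0.0027 by edgeR).

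Tagln encodes transgelin (SM22-alpha), an actin-binding protein of smooth muscle cells (chromosome 9, 45929619 to 45936058, minus strand). It was at 3158, 3282 and 3345 normalised counts in TNF+ mice, against 3039.7, 4031 and 4415 in TNF- mice. WT replicate 1 lay below all TNF+ lungs and the other TNF- lungs above them. The log2 fold change was -0.23 (SE 0.14, 95% CI -0.55 to 0.09, adjusted p = 0.207 by edgeR). Without WT replicate 1 it was -0.40 (SE 0.11, adjusted p = 0.0238 by edgeR), and with TNF-Tg replicate 1 left out as well the adjusted p was 0.0769. Of the 100-base windows of Tagln, 47.8% also occur in the antisense gene Gm48529, and whether counting used strand is not given in the sources used here. Gm48529 itself is not among the gene symbols counted.

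Smtn encodes smoothelin, a protein of fully contractile smooth muscle (chromosome 11, 3517523 to 3540612, minus strand). Its normalised counts were 2885, 2559 and 3347 in TNF+ mice, against 3389, 3641 and 3649 in TNF- mice. The groups did not overlap, but the highest TNF+ lung came close to the lowest TNF- lung. The log2 fold change was -0.28 (SE 0.12, 95% CI -0.55 to -0.01, adjusted p = 0.0781 by edgeR). It passed the cutoff with DESeq2 (log2 fold change -0.31, adjusted p = 0.0449) and without TNF-Tg replicate 3 (-0.40, adjusted p = 0.0239 by edgeR).

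Synpo2 encodes synaptopodin 2 (myopodin), an actin-bundling protein of muscle (chromosome 3, 123076519 to 123236149, minus strand). The TNF+ lungs had 1748, 1457 and 1963 normalised counts and the TNF- lungs 1678, 1654 and 1272. The groups overlapped, and Synpo2 was the only member with a positive log2 fold change, 0.17 (SE 0.15, 95% CI -0.17 to 0.50, adjusted p = 0.377 by edgeR).

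**Figure D2:**
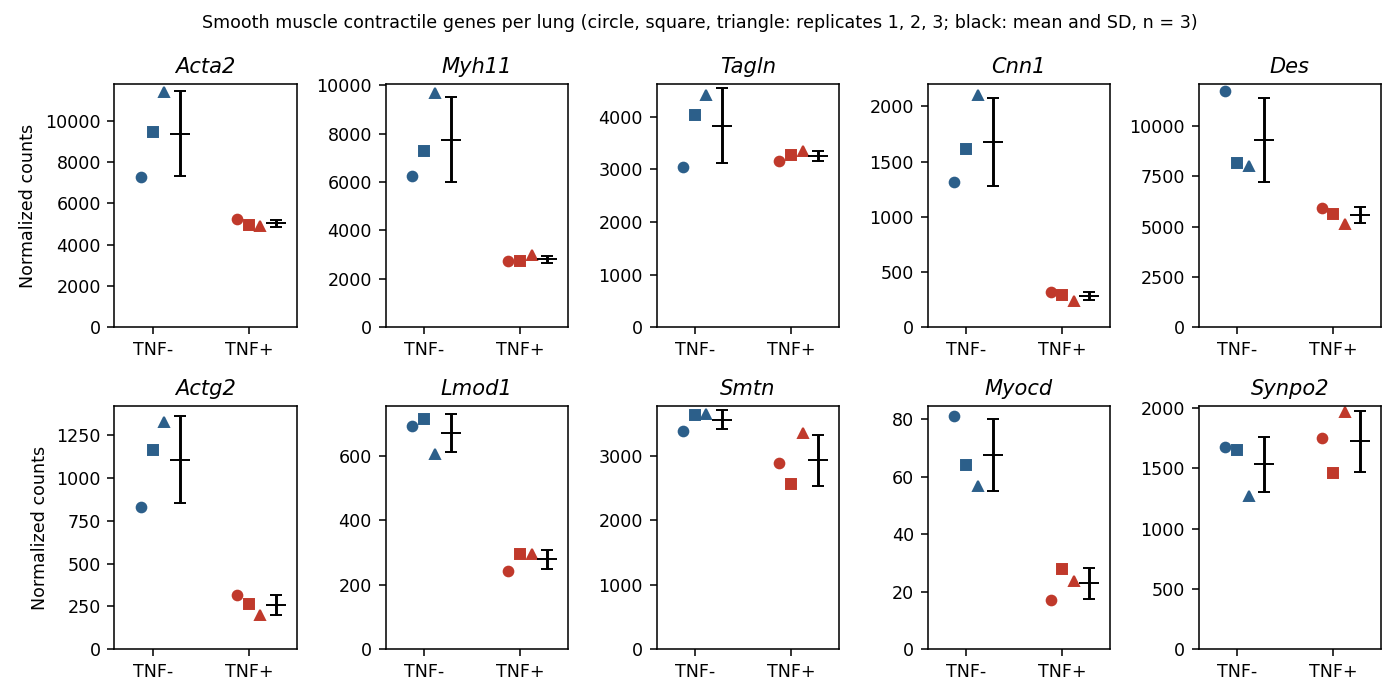
Normalised counts of each smooth muscle contractile gene in every lung, on linear axes from 0, one point per mouse, with the mean and SD of each group in black (n = 3). The groups are apart in 8 genes and overlap in Tagln and Synpo2.

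The order of the members by level was not the same in the groups. Scaled to exon length and library total (RPKM), Acta2 was first in both groups, at 141 ± 31.2 in TNF- and 75.8 ± 2.68 in TNF+ lungs (SD, n = 3). In TNF- lungs Des (81.7 ± 18.2), Tagln (63.6 ± 11.9), Myh11 (33.6 ± 7.69), Smtn (26.8 ± 1.20), Actg2 (23.5 ± 5.40), Cnn1 (20.2 ± 4.86), Lmod1 (5.61 ± 0.480), Synpo2 (3.87 ± 0.569) and Myocd (0.346 ± 0.0631 RPKM) followed. The ranges of Des and Tagln overlapped, as did those of Myh11 and Smtn, Smtn and Actg2, and Actg2 and Cnn1, so these neighbours were not separated by the spread between mice. In TNF+ lungs the order was Acta2, Tagln (54.2 ± 1.61), Des (49.1 ± 3.55), Smtn (22.1 ± 2.99), Myh11 (12.2 ± 0.628), Actg2 (5.54 ± 1.24), Synpo2 (4.35 ± 0.640), Cnn1 (3.41 ± 0.479), Lmod1 (2.33 ± 0.253) and Myocd (0.118 ± 0.0280 RPKM). There, only Actg2 and Synpo2, and Synpo2 and Cnn1, overlapped with their neighbour. Cnn1, whose level per length in TNF- lungs was above that of Lmod1 and Synpo2, was below Synpo2 on average in TNF+ lungs. Summed over the 10 genes, the level was 712 to 747 CPM in TNF+ lungs and 1201 to 1407 CPM in TNF- lungs.

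Ratios taken within a lung do not depend on how the libraries were scaled. The log2 ratio of Acta2 over Cnn1 was 4.05, 4.08 and 4.36 in TNF+ mice, against 2.47, 2.55 and 2.44 in TNF- mice, and the difference of the means was 1.68. Acta2 over Actg2 was higher in every TNF+ lung as well (difference 1.21), and so was Acta2 over Myh11 (0.57). Against Tagln, Smtn and Synpo2 the ratio of Acta2 was lower in every TNF+ lung, with differences of -0.66, -0.59 and -1.04. These 6 ratios had p = 0.1, the smallest that an exact two-sided permutation test of 3 against 3 can give, and 0.15 after Benjamini-Hochberg adjustment over 9 ratios, so none could pass 0.05. For Des, Lmod1 and Myocd the ratios overlapped between the groups (differences -0.16, 0.39 and 0.70, exact permutation p = 0.7, 0.3 and 0.2), and the ratio over Des changed sign without WT replicate 3 (0.09).

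**Figure D3:**
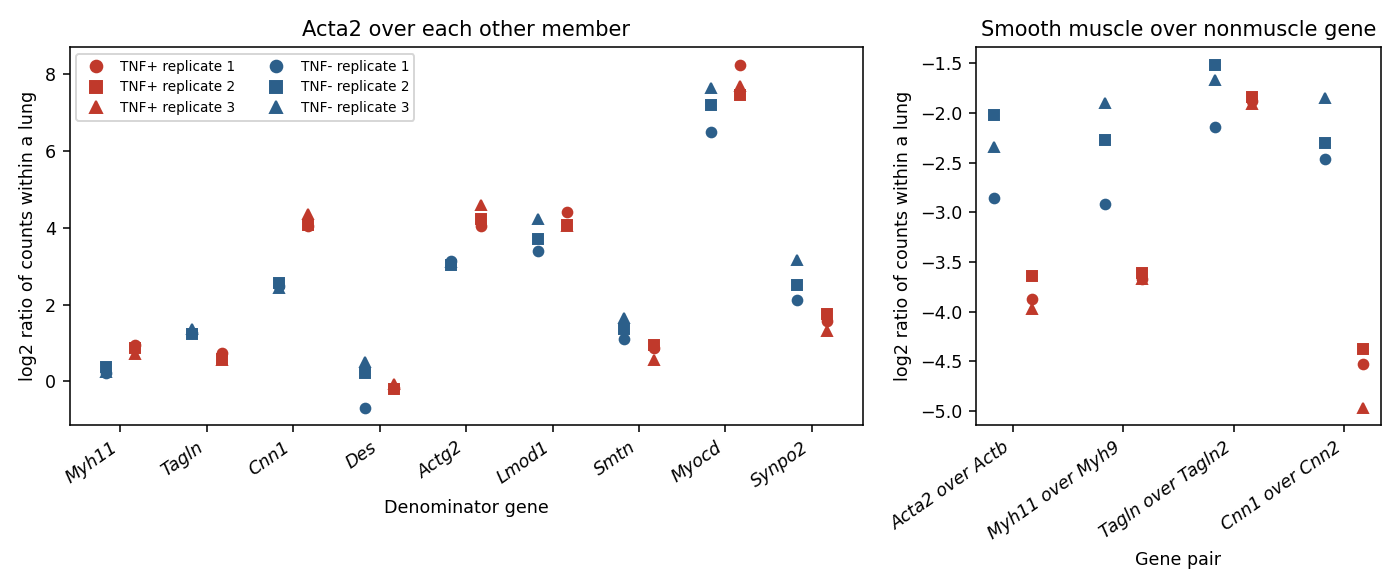
Log2 ratio of counts within each lung for Acta2 over each other member and for 4 contractile genes over their nonmuscle relatives, one point per mouse (n = 3 per group). Acta2 over Cnn1 lay at 4.05 to 4.36 in TNF+ and at 2.44 to 2.55 in TNF- lungs.

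Relatives of these genes that most cells use gave other values. Of 12 nonmuscle actin, myosin, calponin, tropomyosin, light chain, transgelin and vimentin genes, 3 fell, 1 rose and 8 were not past the cutoff, with a median log2 fold change of -0.12. Beside the counts of this list and of those below, 23.4% of all genes tested fell and 24.0% rose. Vim, the intermediate filament of mesenchymal cells and leukocytes, rose by 0.87 on the log2 scale (SE 0.13, adjusted p = 0.00122 by edgeR). Myh10, nonmuscle myosin heavy chain IIB, fell by 1.81 (SE 0.17, adjusted p = 9e-05 by edgeR), Myl12a by 0.41 and Cnn3 by 0.27. The call of Cnn3 was lost without either replicate 1 (adjusted p = 0.0537 without that of WT and 0.0809 without that of TNF-Tg, by edgeR) and without 3 of the other 4 lungs (at most 0.137), and that of Myl12a without replicate 2 of either group (0.0655 and 0.0713) or without both replicates 1 (0.1). Actb was at 0.53 (adjusted p = 0.0532 by edgeR), every TNF+ lung being above every TNF- lung, and passed the cutoff with DESeq2 (0.50, adjusted p = 0.00634), limma-voom (0.0348) and without WT replicate 3 (0.0335 by edgeR). Actg1 was at 0.02, and its sign turned with other scalings (-0.02 with upper-quartile factors). Within a lung, the log2 ratio of Cnn1 over Cnn2 differed by -2.41 between TNF+ and TNF- lungs, Acta2 over Actb by -1.42 and Myh11 over Myh9 by -1.29. None of these 3 ratios overlapped between the groups (exact permutation p = 0.1, the smallest possible, and 0.133 adjusted over 4 ratios), and Tagln over Tagln2 overlapped (-0.10, exact permutation p = 0.7, and 0.03 without WT replicate 2). These 4 pairs were chosen after the values had been seen.

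Other proteins of the contractile apparatus and its anchors also fell. Of 17 such companion genes, 11 fell, 0 rose and 6 were not past the cutoff, with a median of -0.75 (0 rose at an unadjusted p under 0.05, or with DESeq2 or limma-voom). Pgm5 (aciculin), a protein of muscle adhesion sites, was at 223, 210 and 236 normalised counts in TNF+ mice, against 1237, 1364 and 834 in TNF- mice (log2 fold change -2.36, SE 0.19, adjusted p = 4.56e-05 by edgeR). Pdlim3, a protein that binds alpha-actinin, fell by 1.53 (SE 0.21). Tpm2, beta-tropomyosin, was at 1379, 1258 and 1249.8 normalised counts in TNF+ mice, against 7912, 3319.9 and 3490 in TNF- mice. Its highest value was in WT replicate 1, and its log2 fold change was -1.92 with that lung and -1.42 without it (adjusted p = 0.00168 and 7.89e-05 by edgeR). The myosin light chain Myl9 fell by 1.15 and its kinase Mylk by 1.07 (adjusted p = 0.000179 and 0.000369 by edgeR), both named after their values were seen. Flna and Myl6, abundant in many cell types, were at -0.09 and -0.23 (adjusted p = 0.596 and 0.199 by edgeR).

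Genes that set the tone of smooth muscle were partly lower. Of 19 receptors, channels, kinases and phosphatase subunits of contraction control, 10 fell, 0 rose and 9 were not past the cutoff, with a median of -0.64 (0 rose at an unadjusted p under 0.05, or with DESeq2 or limma-voom). The share called was near the 47.4% of all genes tested, while the share that fell was above their 23.4%. Rock1, named after its value was seen, rose without TNF-Tg replicate 2 (0.46, adjusted p = 0.029 by edgeR). Chrm2, the M2 muscarinic acetylcholine receptor, fell by 1.59 on the log2 scale (SE 0.19, adjusted p = 0.000354 by edgeR), and Prkg1, the cGMP-dependent kinase that relaxes smooth muscle, by 1.39 (SE 0.29, adjusted p = 0.00504). Pln, phospholamban, which restrains the calcium pump of the sarcoplasmic reticulum, fell by 1.20 and Ppp1r14a (CPI-17), an inhibitor of myosin phosphatase, by 1.05. Genes that promote contraction and genes that oppose it were both among the genes that fell. Rhoa and Gucy1a3 were at -0.04 and -0.55 (adjusted p = 0.766 and 0.0807 by edgeR). Gucy1a3 passed with DESeq2 (adjusted p = 0.014), without WT replicate 3 (-0.78, 0.00822 by edgeR) and without TNF-Tg replicate 3 (0.0429). Without both TNF-Tg replicate 1 and WT replicate 1, 5 of the 19 genes fell.

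Among 10 regulators of smooth muscle transcription, 4 fell, 1 rose and 5 were not past the cutoff (median -0.24). The share called was near the 47.4% of all genes tested. Csrp2, a LIM protein of vascular smooth muscle, rose by 0.85 (SE 0.17, adjusted p = 0.00386 by edgeR). Fhl2, Tgfb1i1 (Hic-5) and Klf4 fell, with log2 fold changes of -0.80, -0.78 and -0.72 (adjusted p = 0.0347, 0.00107 and 0.00382 by edgeR). Fhl2 was not past the cutoff without WT replicate 1 (-0.60, adjusted p = 0.0996), TNF-Tg replicate 1 (0.0527) or TNF-Tg replicate 3 (0.0864 by edgeR). Klf4 is known to repress contractile genes and Tgfb1i1 to favour them. Mkl1 and Mkl2, the myocardin-related cofactors of serum response factor, were at 0.24 and 0.25 (adjusted p = 0.0501 and 0.203 by edgeR), with Mkl1 past it without WT replicate 3 (0.0393) and Mkl2 without both replicates 1 (0.47, adjusted p = 0.043), and Srf itself, named after its value was seen, at -0.28 (adjusted p = 0.129).

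**Figure D4:**
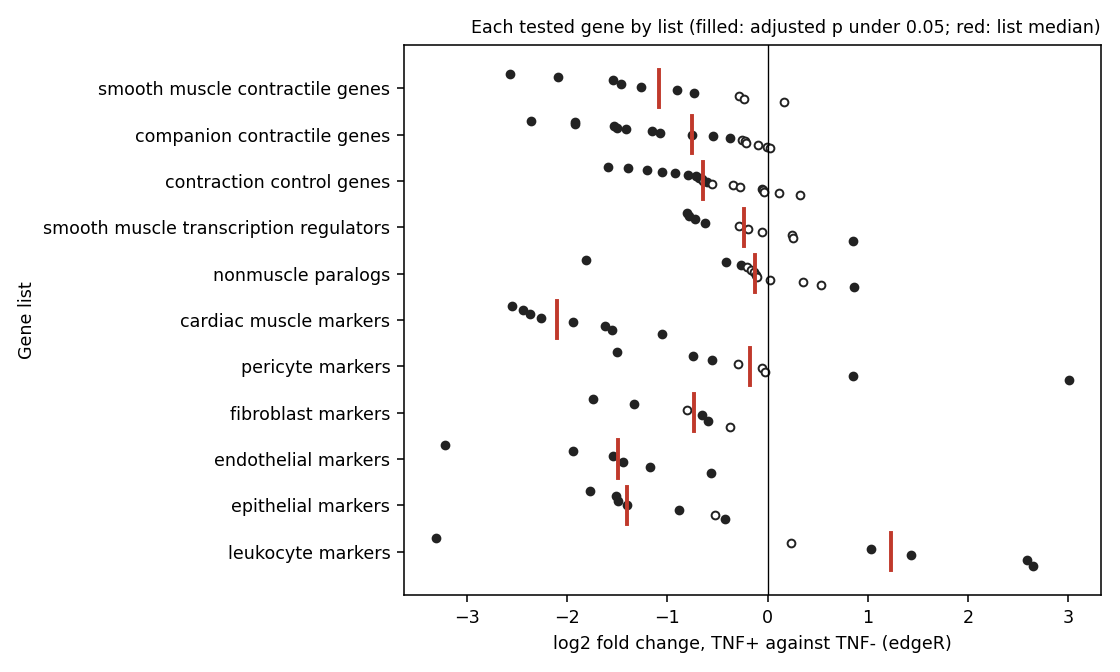
Log2 fold changes, TNF+ against TNF- lungs, of each tested gene, by list (one point per gene, filled where past the adjusted p cutoff, red bar at the list's median). The smooth muscle contractile genes have a median of -1.08, the nonmuscle relatives of -0.12, the cardiac markers of -2.10 and the leukocyte markers of 1.23.

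Other cell types moved with these genes. Of 8 cardiac muscle markers, 8 fell (median -2.10, summed level 322 to 397 CPM in TNF+ and 1157 to 1521 CPM in TNF- lungs, 0 at 0 in any lung), and Nppa, Sln, Actc1 and Myl7 had log2 fold changes of -2.55, -2.44, -2.37 and -2.26. Pulmonary veins of the mouse carry a sleeve of cardiac muscle, and cardiac muscle also expresses Des, Myocd and several companion genes. The part of cardiac muscle in the fall of Des and Myocd was not tested. The 10 contractile genes themselves were above the floor of 3 counts in every lung.

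Of 7 skeletal muscle markers tested, 3 fell and 4 were not past the cutoff, and 8 of 8 listed were highest in WT replicate 1. Without that lung 1 fell, Ckm (-1.21, adjusted p = 0.00171 by edgeR), which with it was at -3.62 and lost its call without TNF-Tg replicate 1, 2 or 3 (adjusted p = 0.0644, 0.0661 and 0.061), where 0 skeletal markers were called (2, 1 and 3 at an unadjusted p under 0.05). At 6 and 7, more were called without WT replicate 2 or 3. Of 4 squamous epithelium markers tested, 3 fell and 1 was not past the cutoff, and 8 of 8 listed were highest in the same lung. Squamous calls by edgeR were 1, 0 and 0 without TNF-Tg replicate 1, 2 and 3 (3 at an unadjusted p under 0.05 in each). Of the 10 contractile genes, 6 were highest in WT replicate 3 and 2 in WT replicate 1. Leaving WT replicate 1 out left the same 7 contractile genes past the cutoff and added Tagln.

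Pericytes, the contractile cells of capillaries, share part of this programme. Of 8 pericyte markers 3 fell, 2 rose and 3 were not past the cutoff (median -0.17), and their summed level overlapped between the groups (440 to 562 CPM in TNF+ and 541 to 672 CPM in TNF- lungs). Of all genes tested, 23.4% fell and 24.0% rose. Rgs5, a regulator of G protein signalling in pericytes and vascular smooth muscle, was at 1225, 1988 and 1528 normalised counts in TNF+ mice, against 268, 117 and 203 in TNF- mice. It rose by 3.01 on the log2 scale (SE 0.30, adjusted p = 0.000143 by edgeR), against the direction of the 7 contractile genes. Kcnj8, a potassium channel subunit of the same cells, rose by 0.85, and Cox4i2 and Notch3 fell, with log2 fold changes of -1.51 and -0.74. Pdgfrb and Abcc9 were at -0.05 and -0.02 (adjusted p = 0.811 and 0.921 by edgeR), and both had the opposite sign without WT replicate 2.

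Markers of the remaining lung tissue were lower and those of leukocytes mostly higher. All 6 endothelial markers fell (median -1.49, 1313 to 1493 CPM in TNF+ and 3381 to 4199 CPM in TNF- lungs), as did 6 of 7 epithelial markers (median -1.40, 16563 to 21702 and 33680 to 40853 CPM) and 4 of 6 fibroblast markers (median -0.73, 957 to 1011 and 1483 to 2401 CPM). Among them Vwf, the von Willebrand factor of endothelium, fell by 3.22, Scgb1a1 of airway club cells by 1.77 and Col3a1 of fibroblasts by 1.74. The fibroblast count was 2 without WT replicate 1 and also without TNF-Tg replicate 1, 2 or 3. Of 6 leukocyte markers 4 rose, 1 fell and 1 was not past the cutoff (median 1.23, 755 to 821 CPM in TNF+ and 208 to 263 CPM in TNF- lungs). Itgam, of myeloid cells, rose by 2.64 and Ptprc, which encodes CD45, by 1.43, whereas Gzma, of cytotoxic lymphocytes, fell by 3.31. None of the markers of these 4 types was at 0 in any lung, and the part of cell composition in the fall of the contractile genes was not tested.

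**Figure D5:**
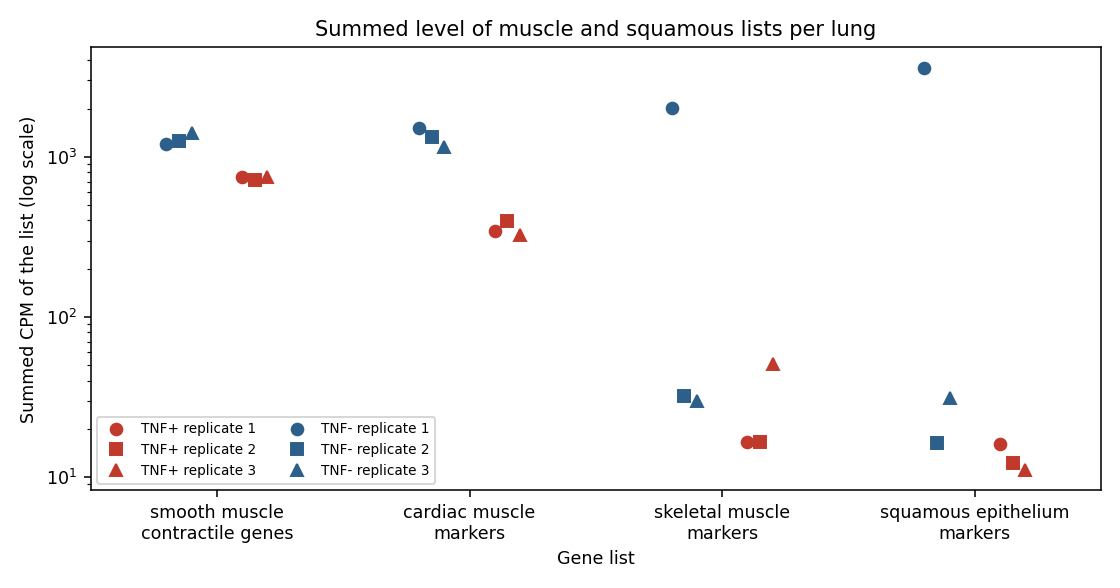
Summed CPM, on a log axis, of the smooth muscle contractile genes and of the cardiac muscle, skeletal muscle and squamous epithelium markers in every lung (one point per mouse, n = 3 per group). The contractile genes lay at 712 to 747 CPM in TNF+ and at 1201 to 1407 CPM in TNF- lungs, and WT replicate 1 stands out for squamous and skeletal muscle markers.

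The genes whose pattern over the 6 lungs was nearest to the mean of the 10 members, among 14990 genes whose mean level reached 1 log2 CPM, were Copz2, Ica1, Mapre3, Sh2d3c and Ccnd3. Their root mean square distances were 0.038, 0.0385, 0.0413, 0.0519 and 0.0588 log2 units. Of the members themselves Acta2 and Lmod1 lay nearest to that mean (0.173 each), and Synpo2 (0.656) and Cnn1 (0.759) lay farthest. With 6 lungs that differ mainly by genotype, this likeness describes the size of the difference between the groups and the spread within them.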

How the data were processed

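Whole-lung poly(A) RNA of 3 TNF+ and 3 TNF- mice was sequenced as single-end reads with a stranded kit. The authors trimmed reads with Trimmomatic and mapped them with STAR (version 2.5.2b), as the paper and the submitters' processing notes state. These sources give unlike versions of Trimmomatic. The build GRCm38.p5 and the counting of reads per gene with featureCounts are from the processing notes. The strand setting, the annotation and the featureCounts version are not given in the sources used here. The deposited values are raw counts per gene symbol, without normalization, and each column was matched to its mouse by genotype and number. The total per lung, 25396923 to 32529408 counts, sets the smallest level that can be seen.

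Counts were filtered (filterByExpr), TMM-normalised and tested across all genes with edgeR's quasi-likelihood test (version 4.0.16, R version 4.3.3), in a design with genotype alone, and p-values were adjusted by Benjamini-Hochberg (cutoff 0.05). The SE was obtained by dividing the absolute log2 fold change by the root of the F statistic. For normalised counts, each count was scaled by its library's TMM-scaled total relative to the average over the 6 lungs. RPKM used the exon union of GENCODE M21. Log2 ratios within a lung were compared with exact two-sided permutation tests. The labels do not say that the mice came from separate litters, so p-values measure the spread between these mice.

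The 10 genes and all lists were chosen with earlier results of these data known. Named are the 10 members, from each other list genes among the up to 4 called ones with the largest change and the 2 most abundant ones not called, and the 5 genes nearest in pattern. Mylk, Myl9, Srf, Rock1 and Gm42418 were named after their values were seen. The values of 1 listed gene are not reported here. Alternatives were DESeq2 (version 1.42.0), limma-voom (version 3.58.1), other scalings and filters, robust dispersion, a replicate block, a minimum fold change and each lung left out. Leaving out TNF-Tg replicate 1 with WT replicate 1 was added after seeing the data. On simulated counts edgeR recovered 159 of 200 changed genes with 20 false calls among 18958 genes. Of equally many genes at each size, 26 were recovered at a log2 change of 1 and 46 at the largest. The simulation changed far fewer genes than were called here. It held no change as small as those of Acta2 and Des, so it does not measure recovery at that size.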

Additional observations from a re-analysis of the deposited data

How the results depend on the processing

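All 7 called contractile genes kept their direction and stayed past the cutoff in 16 of 17 alternatives, and none of the 10 members changed sign. The exception was to keep, of the calls of the same test, those with an estimated log2 fold change of at least 1 in size, which left 5 members (Acta2 at -0.90 and Des at -0.74 no longer passed) and 4320 called genes in place of 9096. With that minimum, 1 nonmuscle, 0 regulator, 4 contraction control, 2 pericyte and 2 fibroblast genes were called by edgeR. Smtn passed with DESeq2 (-0.31). DESeq2 called 4422 genes higher and 4737 lower, and upper-quartile factors 4263 and 4811, so the larger side turned from the 4610 higher and 4486 lower of the test reported. With 1 lung left out, Tagln ranged from -0.40 to -0.12 and Smtn from -0.40 to -0.19, and the called genes from 7347 to 9164. In the same way nonmuscle calls ranged from 2 to 4, fibroblast calls from 2 to 4, skeletal muscle calls from 0 to 7 and squamous calls from 0 to 4. Without both TNF-Tg replicate 1 and WT replicate 1 there were 2 nonmuscle, 5 contraction control, 1 skeletal muscle and 2 fibroblast calls. DESeq2 gave no p for any of the 8 skeletal muscle markers, so its 0 calls are no result. Skeletal muscle calls were 0 with limma-voom, robust dispersion and the replicate block (0, 0 and 1 at an unadjusted p under 0.05), 6 with total counts only and 7 without the filter. Squamous calls were 0 with limma-voom and robust dispersion (0 at an unadjusted p under 0.05 in both) and 8 without the filter. The cause of these shifts was not tested. Same-numbered mice are different animals. Their deviations correlated at -0.149, -0.00429 and -0.242, and those of unlike numbers at -0.0604 to 0.211. With 3 lungs per group, these values cannot decide whether equal numbers mark a shared litter or batch. A replicate block called 7686 genes and 7 of the 10 members, and among the genes named outside the skeletal markers it ended the calls of Fhl2, Cnn3 and Myl12a and added Actb (adjusted p = 0.0505, 0.0998, 0.0572 and 0.0488 by edgeR). With 1 lung left out, 11 of the 13 within-lung ratios kept their direction, and Acta2 over Des (-0.50 to 0.09) and Tagln over Tagln2 (-0.28 to 0.03) did not. The number of mice, 3 per genotype, limits every test, and Myocd (13 to 85 counts) is the member that depth limits most.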
